A study of Mus musculus with 3 samples.

Results

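Peaks of RNA bound by MTR4 were examined in 10 marker genes of Sertoli cells: Tjp1, Clu, Aard, Sox9, Amh, Wt1, Gata4, Inha, Cldn11 and Fshr. The genes were given as a fixed list, and a peak was counted for a gene when its midpoint lay in the gene body of the RefSeq annotation of mouse build mm10. Of 15769 peaks in the list, 10 lay in these genes, and 7 of the 10 genes held at least 1. The question was whether RNA of a somatic cell was recovered from a sort that was aimed at germ cells. The samples were KIT(+) cells of the genotype Mtr4WT, sorted by flow cytometry from the testis of postnatal day 8 (P8) mice and irradiated with ultraviolet light at 400 mJ. LACE-seq then recovered RNA crosslinked to MTR4, which is encoded by Mtrex, with an MTR4 antibody. The 3 samples formed 1 group, and no untreated, input or other control library was among them. Nothing in the labels says whether they came from separate animals.

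Only 1 list of peaks was analysed, recorded under replicate 3, and no list was recorded under replicates 1 and 2. The name of the deposited list reads as if samples were merged, so it may pool all 3. This could not be settled, and the counts below may stand for 1 sample or for the pool. Each peak has a position and a strand sign, with no score and no read count, so the depth behind a peak is unknown and no value below has a replicate error. Without a control, contacts of MTR4 and background from plentiful transcripts cannot be told apart. A peak also cannot tell fewer cells of a type from less RNA per cell.

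Sertoli cells are the somatic cells of the seminiferous tubule that enclose and nourish the germ cells. They are specified by SOX9, secrete anti-Müllerian hormone and inhibin, respond to follicle-stimulating hormone and seal the tubule with tight junctions. They also present KIT ligand to differentiating spermatogonia, the germ cells that carry the KIT receptor. MTR4 is an RNA helicase that hands nuclear transcripts to the exosome, a complex that degrades RNA from the end.

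The Sertoli genes held from 0 to 3 peaks each: Tjp1 held 3, Clu 2, and Aard, Wt1, Gata4, Inha and Fshr 1 each, while Sox9, Amh and Cldn11 held 0. A peak was thus present in 7 of 10 genes (70.0%, 95% Wilson interval 39.7 to 89.2, counting error only), and 25.5% of all 21887 protein-coding genes held one. At least 2 peaks were found in 2 of 10, against 8.55% of protein-coding genes. The genes were put on the list with earlier results of these data known, so these shares describe the list and carry no test. The median was 1 peak per Sertoli gene and 0 per protein-coding gene, at median lengths of 13.7 kb and 17.2 kb. Density was 16.3 peaks per Mb over the Sertoli genes and 5.83 per Mb over all chromosomes, stretches between genes included. Protein-coding genes held 45.8 per Mb up to 5 kb, 17.4 between 5 and 20 kb, 10.2 between 20 and 100 kb and 5.61 over 100 kb. No Sertoli gene passed a test for more peaks than its length and surroundings predict, which 0.214% of 34614 protein-coding and long noncoding genes passed.

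**Figure D1:**
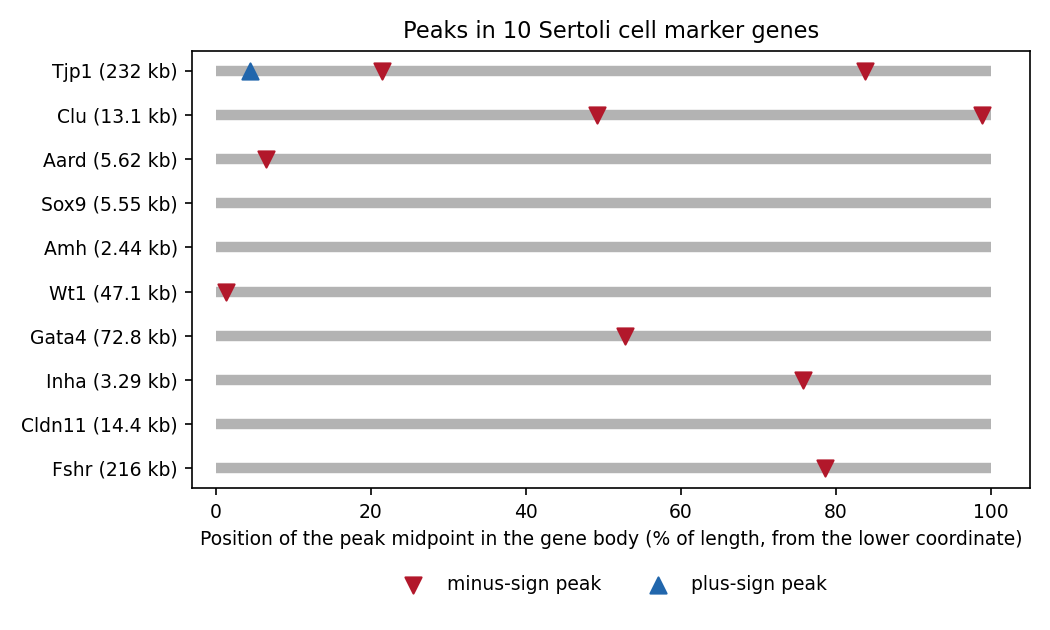
Each grey bar is the body of 1 Sertoli gene, scaled to 100% of its length (given in kb beside the name) and read from its lower coordinate. Triangles mark the midpoints of the 10 peaks; 9 carry the minus sign and 1, in Tjp1, the plus sign, and the bars of Sox9, Amh and Cldn11 are empty.

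The transcription factor genes differed in whether they held a peak. Wt1 encodes a zinc finger factor needed for the formation and upkeep of Sertoli cells (chromosome 2, 105126529 to 105173614). Its 1 peak, at 105127141 to 105127160, carried the minus sign and lay 621 nt inside the lower end of a gene of 47.1 kb. The nearest peak outside Wt1 lay 39.1 kb away, inside the neighbouring long noncoding gene Wt1os, again with the minus sign. Gata4 encodes a GATA factor that acts in Sertoli and other somatic cells of the gonad (chromosome 14, 63198914 to 63271712). Its 1 peak, at 63237341 to 63237360, sat 52.8% of the way along the gene, far from both ends. Sox9, whose product directs Sertoli cell fate (chromosome 11, 112782210 to 112787757), held 0 peaks, and the nearest peak was 63.9 kb from it, in no annotated gene. Over its 5.55 kb only 0.0457 peaks were expected, so the empty gene body does not show that Sox9 RNA was absent.

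Of the hormone and receptor genes, Inha and Fshr held 1 peak each and Amh none. Inha encodes the alpha subunit of inhibin, which restrains secretion of follicle-stimulating hormone (chromosome 1, 75507077 to 75510366). Its peak lay at 75509561 to 75509580 with the minus sign, 796 nt from the higher end of a gene of 3.29 kb and 1.96 kb downstream of the listed transcription start. Fshr encodes the receptor for follicle-stimulating hormone (chromosome 17, 88984952 to 89200675). Its peak, at 89154601 to 89154620, lay 46.1 kb downstream of the listed start in a gene of 216 kb, where 1.65 peaks were expected. Fshr was therefore the only gene of the list with a peak that held fewer than expected, 0.608-fold. Amh, the gene of anti-Müllerian hormone (chromosome 10, 80805240 to 80807679), held 0 peaks over 2.44 kb. The region around Amh was the most densely covered of the 10, with 29.9 peaks per Mb within 500 kb on either side, and its nearest peak lay 10.4 kb away in Dot1l, a histone methyltransferase gene. Even at that density 0.073 peaks were expected in Amh.

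The junction genes Tjp1 and Cldn11 stood at the 2 ends of the list. Tjp1 encodes ZO-1, a scaffold of tight junctions that epithelia of many tissues also contain (chromosome 7, 65296165 to 65527850). Its 3 peaks lay at 65306441 to 65306460 with the plus sign, and at 65345781 to 65345800 and 65490001 to 65490020 with the minus sign. They were spread out, with gaps of 39.3 kb and 144 kb between neighbours. Over 232 kb 1.88 peaks were expected, so Tjp1 stood at 1.59-fold of expectation (unadjusted exact Poisson p = 0.291), although it held the most peaks. The listed start of Tjp1 lies at 65371244, inside the gene body: the first and second peaks were 64.8 kb and 25.5 kb downstream of it, and the third was 119 kb upstream of it, inside the gene body as RefSeq draws it. Cldn11 encodes claudin 11, a strand protein of the tight junctions between Sertoli cells (chromosome 3, 31149920 to 31164326). It held 0 peaks over 14.4 kb, where 0.156 were expected, and the nearest peak lay 55.3 kb away in no annotated gene.

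Clu and Aard completed the list. Clu encodes clusterin, a secreted chaperone that Sertoli cells release in quantity and that many other tissues make (chromosome 14, 65968483 to 65981548). Both of its peaks carried the minus sign; they lay at 65974901 to 65974920, near the middle of the gene, and at 65981401 to 65981420, 138 nt from its higher end. With 0.116 expected, Clu stood at 17.2-fold and had the lowest p of the 10 genes (unadjusted exact Poisson p = 0.00624, adjusted p = 0.76). Aard, a short gene named for a domain rich in alanine and arginine (chromosome 15, 52040107 to 52045722), held 1 minus-sign peak at 52040461 to 52040480, 363 nt inside its lower end.

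RefSeq promoter windows, from 250 nt before to 50 nt after a listed start, were matched for 4 of the 10 genes: Tjp1, Inha, Cldn11 and Fshr. None of these 4 windows held a peak, and 2.24% of all 32851 windows did. The windows of the 3 genes that have both a peak and a listed start are shown, since the positions given above are measured from these starts. They are read 5′ to 3′ on the gene's strand in build GRCm38.p6, which shares its chromosomes with mm10, at chr7:65371195-65371494 (minus strand), chr1:75507359-75507658 (plus strand) and chr17:89200626-89200925 (minus strand). Capitals mark matches, on either strand, to CACGTG (the E-box), AAGGTCA (a site of the nuclear receptor SF-1), AACAAT (a SOX site) or a GATA site in any of 4 spellings: AGATAA, its variant AGATAG, the form TGATAA, or its variant TGATAG.
Tjp1: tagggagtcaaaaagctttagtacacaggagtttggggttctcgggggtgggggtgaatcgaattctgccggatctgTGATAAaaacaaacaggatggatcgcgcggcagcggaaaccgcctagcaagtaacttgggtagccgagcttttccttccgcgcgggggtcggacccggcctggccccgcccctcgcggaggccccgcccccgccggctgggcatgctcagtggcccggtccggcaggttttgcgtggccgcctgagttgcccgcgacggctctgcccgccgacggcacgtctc
Inha: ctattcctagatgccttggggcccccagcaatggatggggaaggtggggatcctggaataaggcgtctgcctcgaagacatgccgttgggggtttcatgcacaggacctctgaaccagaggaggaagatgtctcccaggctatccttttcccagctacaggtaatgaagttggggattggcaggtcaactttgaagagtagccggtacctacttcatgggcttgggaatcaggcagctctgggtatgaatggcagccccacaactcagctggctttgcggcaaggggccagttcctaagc
Fshr: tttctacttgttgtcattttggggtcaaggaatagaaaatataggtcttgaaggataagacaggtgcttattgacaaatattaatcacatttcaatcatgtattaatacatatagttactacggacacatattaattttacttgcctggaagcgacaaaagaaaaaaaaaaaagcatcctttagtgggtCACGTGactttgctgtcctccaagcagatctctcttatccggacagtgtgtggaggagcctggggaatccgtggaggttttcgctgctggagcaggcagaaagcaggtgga

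Tjp1 held 1 match, TGATAA, whose first base lies at -173 from the start, and Fshr held 1, CACGTG, at -61. Inha and Cldn11 held no match. A GATA spelling occurred in 29.8% of all windows, CACGTG in 7.15%, AACAAT in 10.7% and AAGGTCA in 4.72%. These matches describe the letters of the windows and name no bound factor. The bases under the peaks themselves were not analysed here, because no genome of this build was used.

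Set against expectation, the short genes with a peak stood highest and the long ones near 1. Length largely sets this order, since 1 peak is a large multiple of a small expectation. The short genes Sox9, Amh and Cldn11 had no peak. The expected number was the gene's length times the higher of the peak density of its chromosome and that within 500 kb on either side of it. That local stretch included the gene itself, so its own peaks could raise the expectation and lower the fold. Folds were 33.9 for Inha, 19.9 for Aard, 17.2 for Clu, 3.26 for Wt1, 1.64 for Gata4, 1.59 for Tjp1 and 0.608 for Fshr. Each of the 3 highest folds rests on 1 or 2 peaks against at most 0.116 expected. Unadjusted p was under 0.05 in 3 of 10 genes (Clu, Inha at 0.0291 and Aard at 0.049, exact Poisson) and in 3.07% of all 34614 genes tested. After Benjamini-Hochberg adjustment over those 34614 genes none of the 10 passed (lowest adjusted p = 0.76, 1-sided exact Poisson test). Inha, Aard, Sox9 and Amh would each have needed 3 peaks to pass, Clu and Cldn11 4, Wt1 5, Gata4 6, Fshr 9 and Tjp1 10. Summed over the list, 10 peaks were found where 4.92 were expected, and 0.275 of that expectation fell on the 3 genes without a peak.

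**Figure D2:**
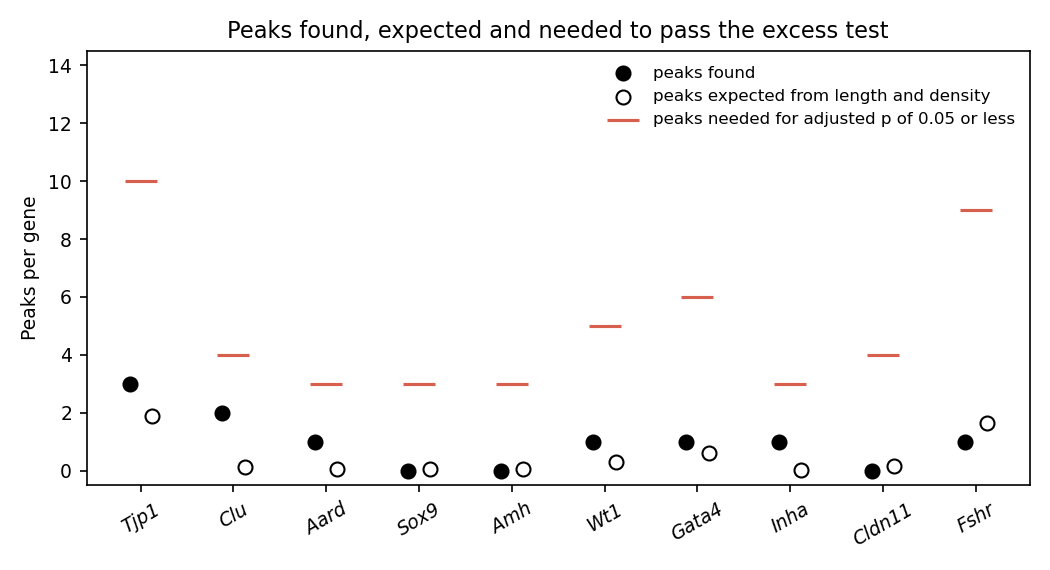
The plot gives, for each Sertoli gene, the peaks found (filled circles), the peaks expected from its length and the local or chromosome density (open circles) and the number that would have given an adjusted p of 0.05 or less (red bars), on a linear axis of peaks per gene. Every filled circle lies below its red bar; Clu, with 2 found and 4 needed, is as near to its bar as Aard and Inha, with 1 found and 3 needed each.

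Longer genes hold a peak more often, so the Sertoli genes were also set beside genes of like length. Both genes over 100 kb, Tjp1 and Fshr, held a peak, as did 66.7% of protein-coding genes of that length. Between 20 and 100 kb, both Wt1 and Gata4 held one, against 32.7% of such genes. Between 5 and 20 kb, Clu and Aard held one and Sox9 and Cldn11 did not, where the share was 16.1%. Up to 5 kb, Inha held one and Amh did not, where the share was 7.43%. Density over protein-coding genes was 45.8 peaks per Mb up to 5 kb, 17.4 between 5 and 20 kb and 10.2 between 20 and 100 kb. These lie above the 5.83 over all chromosomes, while genes over 100 kb held 5.61. Expectations built on density alone therefore tend to run low for genes of up to 100 kb, most of all for those as short as Inha and Amh. The folds and unadjusted p of Inha, Clu, Aard, Wt1 and Gata4 carry this limit.

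All 10 peaks in Sertoli genes were 20 nt wide, the finest step of the list, which 95.7% of all peaks share. None of the 10 lay in another annotated gene or within 1 kb of a small RNA gene; the closest small RNA gene was 71.6 kb from the peak of Gata4. Of the 10, 4 lay within 1 kb inside a gene end (Clu, Aard, Wt1 and Inha), against 24.3% of the 8576 peaks in protein-coding genes. In Inha, a gene of 3.29 kb, that range covers much of the body.

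Most of these peaks carried the minus sign, as did most peaks of the whole list. It was carried by 9 of 10 (90.0%, interval 59.6 to 98.2), against 61.3% of all 15769 peaks and 65.5% of 6194 peaks in protein-coding genes with a known strand. The interval holds both of these shares, but it takes the 10 peaks as independent although they came from 7 genes. A minus-sign peak was found in 7 of 10 genes, against 19.0% of protein-coding genes. Among genes with any peak, those were 7 of 7 Sertoli genes and 4165 of 5582 protein-coding genes (74.6%). A plus-sign peak was found in 1 of 10, Tjp1, against 10.8% of protein-coding genes. Strand was read from the promoter table, and the 3 genes with a peak and a strand gave a mixed picture. Inha lies on the plus strand and its peak had the opposite sign. Fshr lies on the minus strand and its peak had the same sign. Tjp1, also on the minus strand, had 1 peak of the opposite sign and 2 of the same sign. That makes 2 opposite and 3 same among 5 peaks.

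Over the whole list, most peaks had the sign opposite to the gene strand in genes that passed the excess test, and the share lay between 49.5% and 57.6% in genes grouped by their number of peaks. Of the protein-coding genes that passed the excess test, 42 had a known strand and a peak that entered this comparison. In these 42 genes, 147 of 169 peaks (87.0%, interval 81.1 to 91.2) had the sign opposite to the gene. In genes with exactly 1 peak, 1283 of 2591 (49.5%, interval 47.6 to 51.4) did, an interval that holds 50%. The share was 53.7% in genes with 2 peaks, 54.9% in genes with 3 or 4 and 57.6% (interval 53.5 to 61.5) in genes with 5 or more. Among all peaks in genes of known strand, the minus sign was carried by 68.2% in plus-strand genes and 62.8% in minus-strand genes. Clu and Tjp1 apart, every Sertoli gene with a peak is a gene of 1 peak (5 of 7, against 66.5% of protein-coding genes with a peak). Which of the 10 peaks came from transcripts of the Sertoli genes was not tested.

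**Figure D3:**
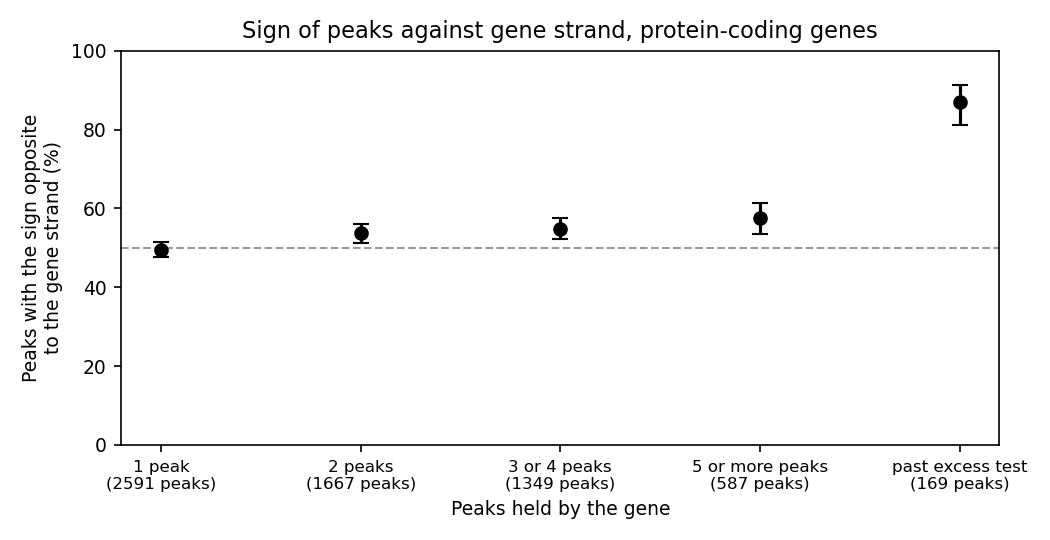
Points give the percentage of peaks whose sign is opposite to the strand of the protein-coding gene that holds them, by number of peaks in the gene and, last, for genes past the excess test (which are also counted in the other classes); bars are 95% Wilson intervals and the dashed line is 50%. The share is 49.5% in genes with 1 peak and 87.0% in genes past the excess test. The intervals take each peak as independent, which peaks of 1 gene may not be.

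A wider list of 32 further genes of Sertoli cells was also counted. It was written with earlier results of these data known. A peak was found in 13 of 32 (40.6%, interval 25.5 to 57.7), against 25.5% of protein-coding genes. At least 2 peaks were found in 3 of 32, against 8.55%. None of the 32 passed the excess test (lowest adjusted p = 0.675, exact Poisson). Among those with 2 peaks were Dmrt1, the gene of a transcription factor that germ cells make as well, and Ctsl, the lysosomal protease cathepsin L. Signals from Sertoli to germ cells were represented by Gdnf, the growth factor of spermatogonial stem cells, and Kitl, the ligand of KIT, with 1 peak each. The others with 1 peak were the transferrin gene Trf, the vimentin gene Vim, the homeobox gene Rhox8, the claudin gene Cldn3, the adhesion gene Ncam1, the nuclear receptor gene Nr5a1, Defb36 and Mro. The peak of Rhox8 also lay in the pseudogene Rhox7b and that of Mro in the long noncoding gene Gm32661. The peak of Cldn3 lay 76 nt inside its gene end and that of Nr5a1 114 nt. In the 6 genes of this list with a peak and a strand, 5 peaks had the opposite sign and 2 the same. Of 16 peaks, 12 carried the minus sign.

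Marker lists of other testis cells gave shares whose intervals overlapped that of the Sertoli genes. The lowest shares, 28.6% for peritubular myoid and 21.4% for immune and endothelial genes, are described under other observations. Median gene length differed between lists, from 8.07 kb for undifferentiated spermatogonia to 34.7 kb for immune and endothelial genes. Leydig and interstitial genes with a peak numbered 10 of 19 (52.6%, 95% Wilson interval 31.7 to 72.7), led by Ptch1, the hedgehog receptor, with 3 peaks, and by Nr2f2 and Col3a1 with 2 each. Genes of differentiating spermatogonia, the cells the sort was aimed at, numbered 7 of 19 (36.8%, interval 19.1 to 59.0), led by Kdm5b with 3 and by Esx1 and Kit, the receptor used for the sort, with 2 each. For undifferentiated spermatogonia the number was 8 of 15 (53.3%, interval 30.1 to 75.2), led by Gfra1 with 3 and by Ret and Pax7 with 2 each. These 3 intervals overlap each other and that of the 10 Sertoli genes, and the differences were not tested. Found over expected was 2.03-fold for the 10 Sertoli genes, 1.68-fold for the wider Sertoli list and 2.95-fold for Leydig and interstitial genes. It was 2.19-fold for differentiating and 1.70-fold for undifferentiated spermatogonia, 1.46-fold for peritubular myoid genes and 0.492-fold for immune and endothelial genes. The same fold over all protein-coding genes was not computed. Protein-coding genes of 5 to 20 kb held 17.4 peaks per Mb and those of 20 to 100 kb 10.2, against 5.83 over all chromosomes. Those over 100 kb held 5.61. A summed fold above 1 thus need not be particular to these lists. No gene of these lists passed the excess test. The counts keep peaks that also lie in another annotated gene. Such peaks were found in Kdm5b and Gfra1, and some Leydig and interstitial genes held no other peak.

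**Figure D4:**
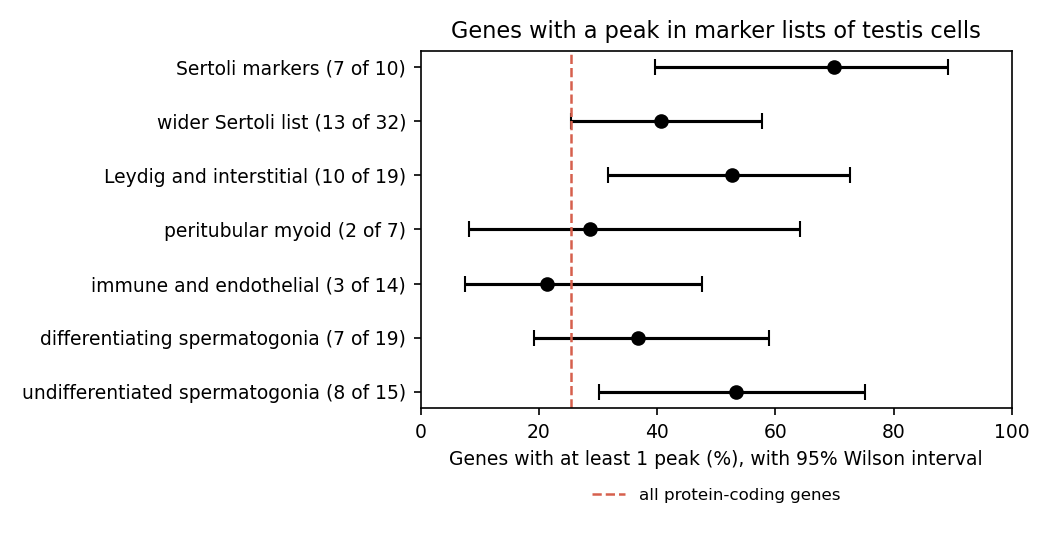
Points give the percentage of genes with at least 1 peak in each marker list, with the numbers of genes beside the names and 95% Wilson intervals as bars; the dashed line is the 25.5% of all protein-coding genes. The Sertoli markers stand highest at 70.0%, and their interval overlaps that of every other list.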

How the data were processed

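Per the submitters' processing notes, cutadapt 1.15, Bowtie 1.0.0 and build mm10 were used; the name of the deposited list points to Piranha as the peak caller, to deduplication and to merging, none of it checked here, and the settings are not given in the sources used here. The list deposited by the authors has 4 columns (chromosome, start, end, strand sign), with coordinates in steps of 20 nt and no score, so depth per sample is unknown. Coordinates are printed 1-based.

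Midpoints were joined to gene bodies of the RefSeq table of GRCm38.p6, with either sign counted; strand came from RefSeq promoter windows (27025 genes). All 116 names of the 7 marker lists matched. Expected peaks were length times the higher of the chromosome and local density, with a 1-sided exact Poisson test over 34614 genes, Benjamini-Hochberg adjustment and a threshold of 0.05 (Python 3.11.15, scipy 1.17.1). Peaks in small RNA genes or in several genes were left out of the comparison of sign with strand over all protein-coding genes. The sign counts of the marker lists kept peaks that lie in several genes. On uniform simulated peaks, 0 of 34614 genes passed. The real peaks are denser in short genes, which this check leaves out. With 3, 5 or 8 peaks added to 200 genes of intermediate length, 46%, 96.5% and 100% of them passed. Tjp1, Fshr and Gata4 are longer and Amh is shorter than the genes drawn from. Members and lists were chosen with earlier results of these data known. Genes were named by rule: all members; wider-list genes with a peak; the 3 genes with the most peaks of each other list; and genes at or nearest to the peaks of members. Of the genes this rule names, 1 is not reported here; it stays in the counts.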

Additional observations from a re-analysis of the deposited data

How the results depend on the processing

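No alternative tried let any of the 10 Sertoli genes pass the excess test: 0 passed in all 14, with the lowest adjusted p between 0.216 (chromosome density alone) and 1 (exact Poisson). The 7 genes with a peak and the 10 peaks were found again with any overlap in place of the midpoint, genes extended by 1 kb, nearby peaks merged, and peaks in or within 1 kb of small RNA genes left out. The list has 1 depth only, which limits all of this. With peaks of 40 nt or more, 0 Sertoli genes and 0 peaks were left, 200 protein-coding genes had a peak and 5 genes passed. With plus-sign peaks alone, 1 Sertoli gene held 1 peak, 2368 protein-coding genes had one and 39 genes passed; with minus-sign peaks alone 26 genes passed. Over the 4 Sertoli genes of known strand, sign opposite to the strand left 2 genes with 2 peaks (2621 protein-coding genes, 49 passing) and sign of the strand 2 genes with 3 peaks (2531 and 9). Requiring 2 peaks left 2 Sertoli and 1872 protein-coding genes. Genes passing, 74 as reported, were 38 after merging same-sign peaks under 100 nt apart, 48 with peaks up to 1 kb from small RNA genes left out, 183 with chromosome density alone and 33 with a local window of 100 kb; with the gene left out of its local window, an alternative added after seeing the data as were the sign of the strand and those of the sign share, 93 passed. The opposite-sign share in genes with 1 peak, 49.5%, was 58.3% (interval 48.6 to 67.3) over 103 peaks of 40 nt or more and 49.3% to 49.6% otherwise. Other causes were not tested. No paired analysis was possible because there was 1 group and 1 list, and no replicate could be left out.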

Other observations

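Lists of 2 further groups of testis cells were counted beside the 25.5% of protein-coding genes with a peak. Peritubular myoid genes with a peak numbered 2 of 7 (28.6%, interval 8.22 to 64.1), 1 each in the tropomyosin gene Tpm2 and the smooth muscle myosin gene Myh11, both with the plus sign, and 1.37 peaks were expected over the list, a ratio of 1.46-fold. Immune and endothelial genes with a peak numbered 3 of 14 (21.4%, interval 7.57 to 47.6), 1 each in Egfl7, an endothelial secreted factor, Csf1r, the receptor of macrophage growth factor, and Vwf, the gene of von Willebrand factor, where 6.1 peaks were expected over the list, a ratio of 0.492-fold.

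The sign against gene strand varied between the lists, on few peaks. It was opposite for 11 peaks and the same for 1 in Leydig and interstitial genes of known strand, with all 3 peaks of Ptch1 opposite. It was opposite for 7 and the same for 3 in differentiating spermatogonial genes, and opposite for 1 and the same for 7 in undifferentiated ones, where the 10 Sertoli genes had 2 opposite and 3 the same. These differences were not tested, and several peaks share a gene. Over the whole list the opposite sign was carried by 68.2% of peaks in plus-strand genes and 37.2% in minus-strand genes. The count of a list thus also depends on the strands of its genes. Those of undifferentiated spermatogonia with a peak and a strand were minus-strand except Foxo1, and the Leydig and interstitial ones were of both strands.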
